A study of Mus musculus with 80 samples.

Results

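Livers of mice lacking Adamts12 were compared with wild-type livers 12 h after a single dose of carbon tetrachloride (CCl4), over every gene of the expression table. The comparison used 9 of the 80 livers of the series, 4 labelled knockout and 5 labelled wild type, and 14558 of the 14560 genes were tested. The labels give 5 knockout livers, and the fifth was left out because its expression stood with the vehicle livers. The 9 livers were thus selected on the measured response to CCl4, the place of each liver on a scale of CCl4 response genes, which is given below as a description without a test. The transcript of the oncofetal RNA-binding protein gene Igf2bp3 was higher in the knockout, by 4.48 ± 0.64 on the log2 scale. That of Dnmbp, which encodes a scaffold and exchange factor for the GTPase Cdc42, was lower, by -0.88 ± 0.17. These 2 genes (0.0137% of those tested, or 0.00687% in each direction) passed the test. The number depended on single livers, being 35 without wild-type liver 2, 22 without the liver labelled knockout 4 and 64 with the fifth knockout liver kept, and Dnmbp did not pass in 6 of the 9 fits without 1 liver. Of the 780 tested genes in 41 lists of liver pathways and cell types 0 passed it in limma, and 78 (10%) had an unadjusted p under 0.05, near the 8.38% of all genes tested.

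All mice were 8-week-old females on a C57BL/6J background, either wild type or Adamts12-/-, the latter from a line made for earlier work. CCl4 groups received 0.3 ml per kg by intraperitoneal injection, diluted to 3% by volume in olive oil, and vehicle groups received olive oil alone. Livers were taken after 4 h, 12 h, 24 h or 7 days, with 5 per group by the labels, and each liver gave a stranded mRNA library. Whether the wild-type mice were littermates of the knockouts is not given in the sources used here.

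ADAMTS12 is a secreted zinc metalloproteinase with thrombospondin repeats that acts on the extracellular matrix. CCl4 is turned into a radical by Cyp2e1, a cytochrome P450 of the hepatocytes around the central vein, where it kills cells and starts a stress response. Inflammation, proliferation and matrix deposition follow, and stellate cells, the mesenchymal cells of the sinusoid, are the main source of new matrix.

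Levels are given as normalized counts, which are reads per gene divided by a size factor for the library. Differences are given on the log2 scale as knockout minus wild type ± SE. A gene was called when its adjusted p from limma was under 0.05, adjusted over all 14558 genes. The SE rests on a spread pooled over all 16 groups. Depth ranged from 19.7 to 64.5 M reads in the 9 livers, so that 3 reads, the limit that a count of 0 allows, corresponded to between 1.16 and 3.8 normalized counts. The 10 most abundant genes took 16% to 22.2% of the reads of a liver. Pairs of livers of the same genotype had correlations of 0.9572 to 0.9874 over genes on the log2 scale, and pairs of different genotype 0.9379 to 0.9839.

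The place of each 12 h liver was read on a scale set by 956 genes that responded to CCl4, on which the mean of wild-type vehicle livers is 0 and that of wild-type CCl4 livers is 1. Wild-type CCl4 livers 1 to 5 stood at 1.003, 0.805, 1.096, 1.028 and 1.068. Livers labelled knockout 1 to 4 stood at 0.772, 1.054, 1.066 and 0.956, which overlapped the wild type. The library labelled knockout CCl4 replicate 5 stood at -0.052, within the vehicle range. The library labelled knockout vehicle replicate 1 stood at 1.109, just above the highest CCl4 liver, and the other vehicle livers were between -0.135 and 0.083. The main results that compare the 12 h knockout vehicle group with another are therefore given with and without that library. That library also enters the pooled spread behind the comparison of genotypes after CCl4.

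**Figure D1:**
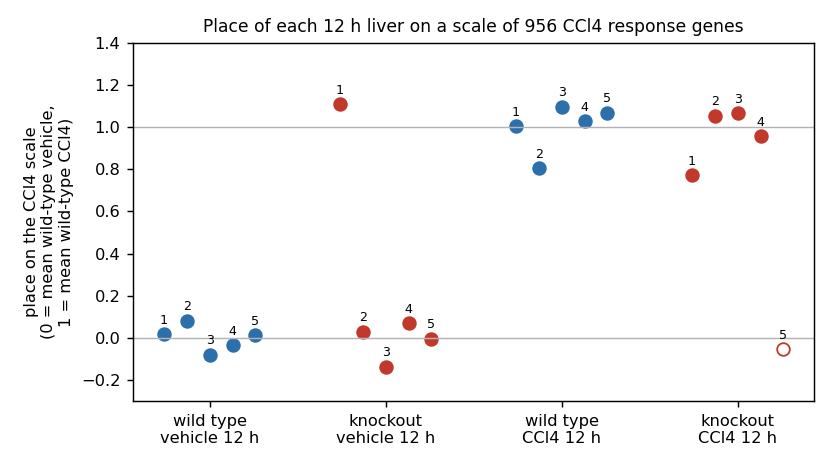
Place of each 12 h liver (y axis, no unit) on the scale of 956 CCl4 response genes, by group, with 1 point per liver and its replicate number; 0 is the mean of wild-type vehicle livers and 1 that of wild-type CCl4 livers. The knockout CCl4 replicate 5 (open point, left out) lies at -0.052 with the vehicle livers, and the knockout vehicle replicate 1 lies at 1.109, beside the CCl4 livers.

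Some of the 9 livers also stood apart from their own group. In wild-type liver 2 the acute phase transcript Saa1 was at 2711.6 normalized counts, against 111062.9 to 167312.1 in the other wild-type livers. The metallothionein transcript Mt1 was at 5643.0 there, against 58743.4 to 131027.3. Wild-type liver 1 held the cholangiocyte keratin Krt19 at 1536.1, against 6.0 to 26.3 in the others, and the globin transcript Hbb-bs at 24586.8, against 1624.7 to 5008.6. In the liver labelled knockout 1 the immediate early transcript Fos was at 1611.4, against 56.8 to 90.1 in the others labelled knockout. Saa1 and Krt19 were chosen here after their values were seen. The labels of wild-type livers 1 and 2 also end in a number below 7000, unlike those of the other 3 wild-type livers and of the knockouts, and the labels do not say what the number stands for. The numbers of all wild-type livers here lie below those of all livers labelled knockout. Whatever the number stands for therefore cannot be told apart from genotype in this comparison.

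Adamts12 itself (ENSMUSG00000047497, chr15:11064790-11349231 on GRCm38, plus strand) was a low transcript in these livers. Normalized counts were 6.9, 25.4, 4.8 and 20.3 in livers labelled knockout 1 to 4, and 16.5, 12.1, 11.4, 18.9 and 16.4 in wild-type livers 1 to 5. The libraries labelled knockout 2 and 4 lay above every wild-type liver, and the other 2 lay below. The log2 difference was -0.32 ± 0.47, with an adjusted p of 0.879, and an exact two-sided permutation test over the 126 arrangements of the livers gave p = 0.5397, where 0.007937 is the smallest it can give. Over the other 7 conditions, with 5 livers per group, Adamts12 was lower in the knockout by -1.52 ± 0.17 (adjusted p = 1.45e-09). Reads were counted over the whole gene and the deleted exons are not given in the sources used here, so the reads that remain cannot be placed. At 12 h after CCl4 the transcript level thus does not separate the genotypes, and knockout and wild type are named by their labels throughout.

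Igf2bp3 (chr6:49085223-49214957, minus strand) encodes an RNA-binding protein of the embryo that most adult tissues make little of. It was at 32.3, 65.5, 82.1 and 41.8 normalized counts in livers labelled knockout 1 to 4, and at 1.3, 0, 0, 5.1 and 4.4 in wild-type livers 1 to 5. The groups did not overlap, and 3 wild-type livers were below the level of 3 reads, which was 3.8, 1.35 and 2.29 in them. The difference was 4.48 ± 0.64 (adjusted p = 2.04e-05). Its size depends on the pseudocount of 1, and with a pseudocount of 8 it was 2.60. It remained called whichever of the 9 livers was left out, with differences of 4.17 to 4.83. The library labelled knockout 5, left out of the fit, held 22.4 normalized counts, also above every wild-type liver.

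Dnmbp (chr19:43846821-43940191, minus strand) was at 737.4, 864.7, 808.6 and 1103.1 normalized counts in the livers labelled knockout, and at 1431, 1204, 1788.3, 1807.2 and 1848.7 in the wild type. Every knockout value was below every wild-type value. The difference was -0.88 ± 0.17 (adjusted p = 0.0222). The call was lost when knockout liver 1, 2 or 3 or wild-type liver 3, 4 or 5 was left out, while the difference stayed between -0.99 and -0.80. The third gene by adjusted p was Neurl3, of a family of ubiquitin ligases, at 606.5, 542, 414.5 and 262.4 normalized counts in the knockout and 264.7, 285.2, 149.5, 162.8 and 174 in wild type. Its difference of 1.12 ± 0.24 did not pass in the main fit (adjusted p = 0.0738), and the lowest knockout liver lay within the wild-type range. Without the library labelled knockout vehicle replicate 1, which enters the pooled spread, Neurl3 passed (adjusted p = 0.0466 from limma). In that fit Dnmbp had an adjusted p of 0.00973. Neurl3 was chosen after its values were seen.

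**Figure D2:**
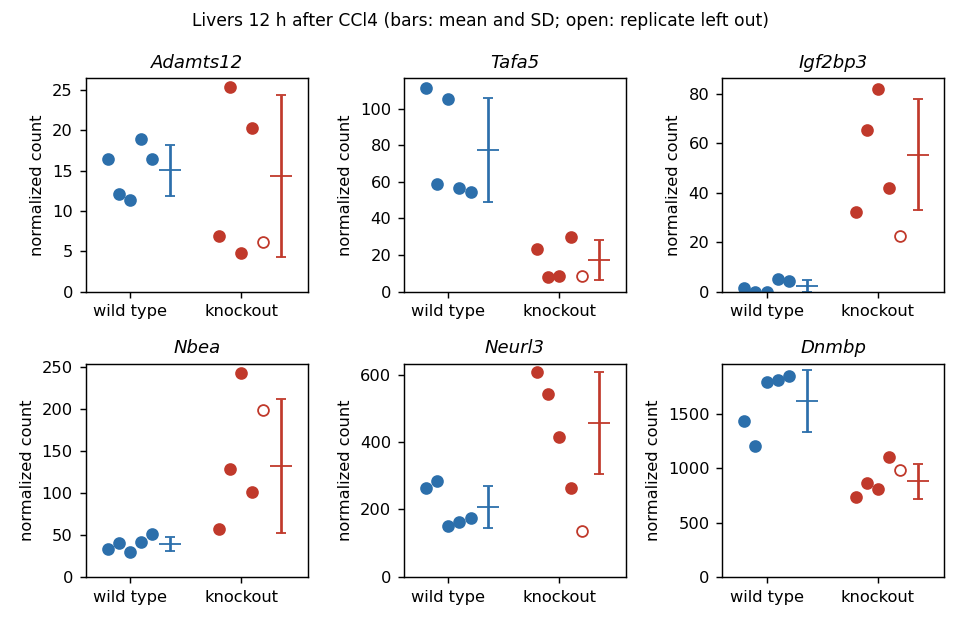
Normalized counts (y axes, linear, from 0) of Adamts12, Tafa5, Igf2bp3, Nbea, Neurl3 and Dnmbp in each liver 12 h after CCl4, wild type in blue and knockout in red, with the mean and SD of 5 and 4 livers beside the points and the left-out knockout replicate 5 open. Igf2bp3 (knockout 32.3 to 82.1, wild type 0 to 5.1) and Dnmbp (knockout 737.4 to 1103.1, wild type 1204 to 1848.7) do not overlap, and Adamts12 does.

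The called genes did not follow the same course over the 8 conditions. Igf2bp3 was also at 42.1 to 62.6 normalized counts in the 12 h knockout vehicle livers, against 1.6 to 17.2 in wild type, again without overlap, although that difference of 2.44 ± 0.60 did not pass (adjusted p = 0.118, and 0.284 without the library labelled knockout vehicle replicate 1). In wild type it was lower after CCl4 than after vehicle at 12 h, by -1.99 ± 0.60 (adjusted p = 0.00387), and in the knockout the CCl4 effect was 0.06 ± 0.64 (adjusted p = 0.956), and 0.05 ± 0.68 without that library (adjusted p = 0.962). The difference between those effects, 2.04 ± 0.88, did not pass (adjusted p = 0.731), and was 2.04 ± 0.91 without it (adjusted p = 1). At 24 h after CCl4 the level was 8.6 to 36.3 in knockout livers and 10.1 to 26.1 in wild-type livers, and the difference was -0.42 ± 0.60 (adjusted p = 0.945). At 4 h after CCl4 it was 1.3, 3.0, 2.7, 37.4 and 44.0 in knockout livers 1 to 5 and 0 to 4.5 in wild-type livers. Knockout livers 1, 2 and 3 thus lay within the wild-type range, and the difference was 2.16 ± 0.60 (adjusted p = 0.0908). After vehicle at 4 h the values were 14.1 to 28.1 and 2.4 to 20.4.

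Dnmbp was at 986.2 to 1765.2 normalized counts in the 12 h knockout vehicle livers and at 924.1 to 1213.0 in the wild type, a difference of 0.18 ± 0.16 (adjusted p = 0.696). The highest of these, 1765.2, came from the library labelled knockout vehicle replicate 1, and the other 4 reached 1243.7. Without it the difference was 0.04 ± 0.17 (adjusted p = 0.999). In wild type Dnmbp was higher after CCl4 than after vehicle, by 0.59 ± 0.16 (adjusted p = 0.00139). In the knockout the CCl4 effect was -0.46 ± 0.17 (adjusted p = 0.032) with that library in the vehicle group, and -0.32 ± 0.17 without it, where it did not pass (adjusted p = 0.128). The difference between the effects was -1.05 ± 0.24 and did not pass (adjusted p = 0.478), nor did it without the library, at -0.91 ± 0.23 (adjusted p = 1). At 24 h after CCl4 it was at 652.3 to 820.7 in knockout livers and 484.3 to 944.6 in wild-type livers, where it was below the 4 h level by -0.88 ± 0.16 (adjusted p = 8.05e-06). At 4 h after CCl4 the order was the other way, with 1363.4 to 1850.3 in knockout livers and 963.1 to 1499.8 in wild-type livers, and the difference of 0.34 ± 0.16 did not pass (adjusted p = 0.589). The 12 h effects share livers with the comparison of genotypes and add no independent evidence to it.

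**Figure D3:**
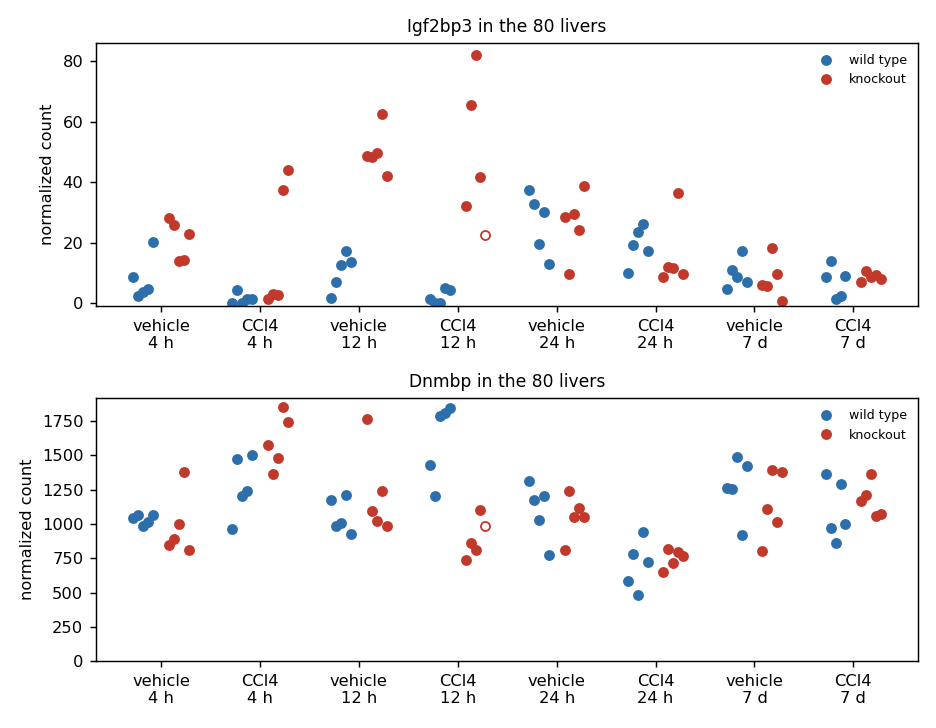
Normalized counts (y axes, linear) of Igf2bp3 and Dnmbp in all 80 livers by condition, wild type in blue and knockout in red, with 1 point per liver and the left-out knockout CCl4 12 h replicate 5 open. At 12 h Igf2bp3 is apart by genotype after vehicle and after CCl4, whereas Dnmbp is apart after CCl4 only, with knockout values of 737.4 to 1103.1.

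The small number of calls was set against the precision of the comparison. The 95% confidence interval of the difference lay within a 2-fold change in either direction for 70.5% of the 14558 genes, and for 87.7% of the 10106 genes with a mean of at least 100 normalized counts. Without adjustment, 1220 genes (8.38%) had p under 0.05. Knockout values lay above all wild-type values for 108 genes (0.742%) and below for 165 (1.13%), 1.88% together. The median difference over all genes was -0.0097.

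The count of called genes depended on single livers. Without wild-type liver 2 it was 35 (0.24%), 12 higher and 23 lower, and without the liver labelled knockout 4 it was 22 (0.151%), 8 higher and 14 lower. Of these, 12 were called in both, all in the same direction. The 2 fits share most of their livers, so this is not independent agreement. Besides Igf2bp3, Dnmbp and Neurl3 the 12 included the co-chaperone gene Dnajb4, Clec16a, whose product acts in mitophagy, Ubald2 and Nosip. Dnajb4 was at 1506.0, 1262.3, 1482.0 and 806.5 normalized counts in the knockout and 691.4, 1639.4, 669.1, 577.6 and 621.7 in wild type. Every knockout value was thus above 4 of the wild-type livers and wild-type liver 2 was above them all, and the difference of 0.67 ± 0.19 with all 9 livers (adjusted p = 0.271) became 0.94 without that liver. Rac1, which encodes a GTPase of the actin cytoskeleton, was at 4653.5, 6514.3, 7251.7 and 7252.7 in the knockout, and at 10082.9, 5185.1, 12126.7, 10296.7 and 8638.3 in wild type. For Rac1 wild-type liver 2 was the one inside the knockout range, and the difference of -0.50 ± 0.14 (adjusted p = 0.273) was -0.69 and called without that liver. Ubald2, Nosip, Clec16a and Rac1 were chosen after their values were seen.

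With the library labelled knockout 5 kept, 64 genes were called (0.44%), 13 higher and 51 lower. For 36 of the 64 that library lay outside the range of the other 9 livers, each time on the side of the call. The mitochondrial chaperonin gene Hspe1 was one of them, at 3056.6 normalized counts in that library, against 7156.9 to 19925.6 in the other livers labelled knockout and 17106.9 to 31843.2 in wild type. Igf2bp3 and Dnmbp were called in both fits.

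The response to CCl4 itself was large in both genotypes at 12 h. In wild type 8412 genes (57.8%) were called, 4182 higher and 4230 lower, and in the knockout 5013 (34.4%), 2696 higher and 2317 lower. Without the library labelled knockout vehicle replicate 1 the knockout count was 6805 (46.7%), 3439 higher and 3366 lower. That fit shared 6169 genes with wild type, 73.3% of the wild-type list and 90.7% of the knockout list, all in the same direction. The knockout CCl4 livers were kept for standing with CCl4 livers, and this fit also drops a vehicle library for standing there. A large response shared with wild type was thus partly set by that choice and is given as a description. Group sizes also differ between these counts, so the counts cannot be compared directly. The test of a difference between these responses called 0 genes with limma, and 950 had an unadjusted p under 0.05. Without the library labelled knockout vehicle replicate 1 these counts were 0 and 410. Among vehicle livers at 12 h, 6 genes (0.0412%) were called. Elovl7 (2.86), a fatty acid elongase, and Chka (1.32), choline kinase, were higher, while Tafa5 (-2.70), Lrp2bp (-2.63), Cyp3a41b (-5.08) and 5033421B08Rik (-2.16) were lower, and 0 were called without the library labelled knockout vehicle replicate 1.

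Of the genes called between the genotypes in the other conditions, 76 at 4 h after CCl4 (0.522%), 34 at 4 h after vehicle (0.234%), 8 at 7 days after vehicle (0.055%), 2 at 24 h after CCl4 (0.0137%, Adamts12 and the predicted gene Gm28438) and 6 at 12 h after vehicle, none was called at 12 h after CCl4. Their sign was the same at 12 h after CCl4 for 41 of 76, 16 of 34, 7 of 8, 2 of 2 and 4 of 6. The median difference of the 76 genes, taken in the direction of their call, was 1.37 at 4 h and 0.03 at 12 h. At 7 days after CCl4 and 24 h after vehicle 0 genes were called by limma, with 925 and 1135 at an unadjusted p under 0.05.

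A second set of genes differed between the genotypes as a mean over the other 7 conditions, which share no liver with this comparison. It held 72 genes (0.495%), 32 higher and 40 lower in the knockout. At 12 h after CCl4, 62 of the 72 had the same sign, 27 of 32 and 35 of 40, and 13 had no overlap between genotypes (1.88% of all genes had none), 12 of them on the same side and Igsf23 on the other. With limma 0 were called there and 16 had an unadjusted p under 0.05, all in the same direction, against 8.38% of all genes. Without the library labelled knockout vehicle replicate 1 the set held 79 genes, 69 of them shared, and 64 of the 79 had the same sign at 12 h after CCl4. The median difference of the 32 genes was 0.77 over the other conditions and 0.51 here, and that of the 40 genes -0.71 and -0.35. By position, 12 of the 548 genes tested on chromosome 13 belonged to the set (2.19%), as did 7 of 570 on chromosome 15 (1.23%) and 5 of 455 on chromosome 16 (1.10%). Next by share were 7 of 808 on chromosome 9 (0.866%), 3 of 351 on chromosome 18 (0.855%) and 6 of 953 on chromosome 5 (0.63%), against 0.495% of all genes tested. The lowest share of a chromosome with a member was 1 of 1085 on chromosome 2 (0.092%). Clustering by position was not tested. The genes named from this set were chosen after their values were seen.

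Tafa5, which encodes a small secreted protein and lies on the same chromosome as Adamts12 (chr15:87544299-87759364), was at 23.3, 7.7, 8.7 and 30.0 normalized counts in the knockout livers and 111.4, 58.7, 105.3, 56.6 and 54.7 in wild type. The groups did not overlap, with a difference of -2.23 ± 0.55 (adjusted p = 0.168). Nbea, the gene of neurobeachin, a protein of vesicle traffic, was at 57.2, 128.3, 243.5 and 100.7 in the knockout and 32.9, 40.4, 29.8, 41.1 and 51.4 in wild type (1.57 ± 0.37, adjusted p = 0.149). Cage1, a cancer and testis antigen gene, was at 53, 55.5, 115 and 43.9 and at 22.8, 22.4, 43.5, 22.3 and 23 (1.24 ± 0.47, adjusted p = 0.502). These 3 genes were picked from the 13 without overlap. Ide, the gene of the insulin-degrading enzyme, overlapped by 1 liver, at 3765.2, 3698.2, 5108.9 and 2915.2 against 1141 to 2946.6.

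Further members of the 72, also picked after their values were seen, are given by kind, with no test of the kinds. The class II antigen presentation genes H2-Eb1, H2-Ab1, H2-Aa and H2-DMb1 were higher in the knockout over the other conditions, by 0.65 to 0.78. Here their differences were 0.23, 0.42, 0.50 and 0.66, and their values overlapped, for example H2-Ab1 at 462.8 to 1005.4 in knockout livers and 335.1 to 1010.7 in wild-type livers. Zinc finger genes of chromosome 13 (Zfp429, Zfp493, Zfp273 and Zfp874a) were lower over the other conditions, by -0.26 to -0.80. Their differences at 12 h after CCl4 were -0.40, -0.40, -0.49 and -0.15, none of them called. Bcl6, which encodes a transcriptional repressor that differs between the sexes in liver, was at 435.4, 344.7, 381.6 and 369.5 in the knockout and 491.4, 650.7, 698.8, 545 and 652.4 in wild type, without overlap (-0.66 ± 0.63, adjusted p = 0.782). The major urinary protein gene Mup15, one of a family of near-identical copies whose reads are hard to assign, was at 1.1, 6.2, 3.9 and 8.6 against 69.4 to 284.9 (-4.71 ± 1.77, adjusted p = 0.499).

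Of the 72 genes, 4 lie within 10 Mb of Adamts12, itself included, among 50 genes tested there, against 0.495% of all genes tested. At 12 h after CCl4 0 of the 50 were called with limma, 0 were free of overlap and 2 had an unadjusted p under 0.05. Over all genes tested these shares were 0.0137%, 1.88% and 8.38%.

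**Figure D4:**
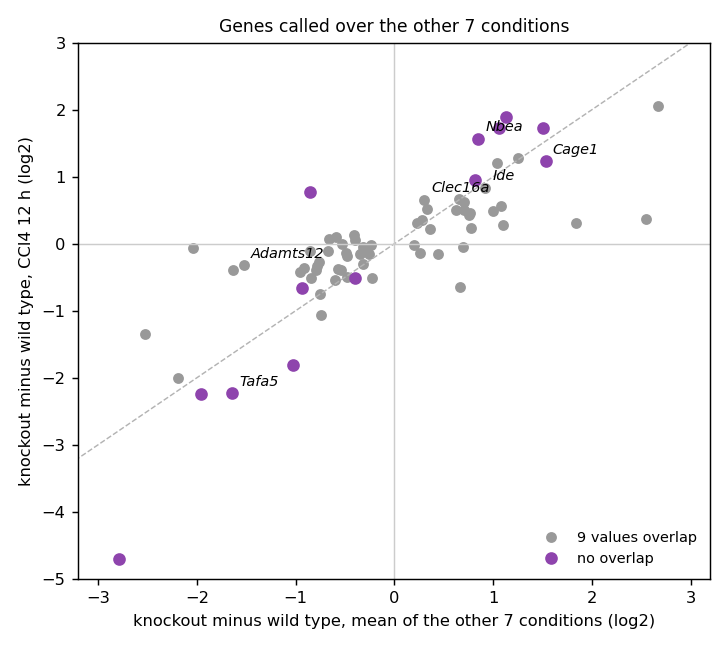
Difference between knockout and wild type at 12 h after CCl4 (y axis, log2) against the mean difference over the other 7 conditions (x axis, log2) for the 72 genes called over those 7, with 1 point per gene, purple where the 9 values did not overlap, and a dashed line of equality. Of the points 62 lie in the lower left and upper right, and Adamts12, at -1.52 and -0.32, lies above the line.

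The gene lists were read by counts and medians, beside the median of -0.0097 and the 8.38% of all genes with an unadjusted p under 0.05. List medians ran from -0.77 to 0.54, with 13 of 41 within 0.1 of 0, 6 above 0.3 and 5 below -0.3. The range given after a median is that over the 9 fits without 1 liver. In 19 of the 41 lists the median changed sign in at least 1 of those fits, and in 22 it did not. Some medians had the same sign in 12 h vehicle livers, such as mitochondrial-encoded (-0.63), erythroid (-1.05) and antigen presentation genes (0.64). Others had the opposite sign there, such as neutrophil markers (-0.65) and the integrated stress response list (0.39). These vehicle medians include the library labelled knockout vehicle replicate 1. The genes named from a list are, unless said otherwise, among the 4 of its members with the smallest adjusted p, all above 0.05.

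The hepatocyte programmes that CCl4 lowers held no gene that passed the test between genotypes. Of 22 pericentral genes, which carry drug metabolism and lie where CCl4 acts, 18 had a negative and 4 a positive difference, with a median of -0.24 (-0.35 to -0.03, the latter without wild-type liver 2). The median response of this list to CCl4 was -1.53 in wild type, so the difference between genotypes was small beside it. Cyp2a5, an inducible cytochrome P450, was at 21448.4, 11446.3, 8918.3 and 13097.1 normalized counts in the knockout and 30351.4, 28718.4, 37625.2, 28927.6 and 18301.2 in wild type. Knockout liver 1 lay above the lowest wild-type liver, and the other 3 lay below all of them (-1.11 ± 0.47, adjusted p = 0.559). Cyp2c37 had a difference of -0.76 ± 0.36 (adjusted p = 0.581), at 1755.5 to 3049.1 against 2293.1 to 5499.5. Periportal genes, the counterpart around the portal vein, had 12 positive and 8 negative of 20, with a median of 0.07 (-0.42 without knockout liver 1 to 0.25 without wild-type liver 2).

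Among 28 cytochromes and conjugation enzymes 13 were positive and 15 negative, with a median of -0.04 (-0.37 without knockout liver 1 to 0.23 without wild-type liver 2). The list held opposite examples. Sult1e1, the estrogen sulfotransferase, was at 1094.9, 799.7, 753.6 and 333.1 in the knockout and 154.5, 183.4, 299.8, 313.6 and 104.0 in wild type, without overlap (1.81 ± 1.10, adjusted p = 0.668). Ugt2b37, a glucuronosyltransferase of a family with close copies, was at 689.7, 554.7, 568.1 and 667.2 and at 1669.1, 3089.2, 1272.6, 1041.1 and 938.0 (-1.23 ± 0.61, adjusted p = 0.591). Of 20 bile acid genes 12 were positive, with a median of 0.07 (-0.16 to 0.28, without the same livers). Cyp7a1, which catalyses the first step from cholesterol to bile acids, was at 785.6, 890.6, 924.6 and 152.1 in the knockout and 110.2, 2134.5, 53.4, 162.8 and 61.3 in wild type (1.75 ± 0.91, adjusted p = 0.615). Wild-type liver 2 was above all others and the library labelled knockout 4 within the range of the remaining wild-type livers, so that the groups overlapped at both ends.

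Lipid and glucose genes showed no common direction. The 24 cholesterol genes had 10 positive and 14 negative differences (median -0.10, -0.19 to 0.04), and the mevalonate pathway kinase Pmvk was at 429.0 to 519.4 in knockout livers and 604.2 to 1190.6 in wild-type livers, without overlap (-0.69 ± 0.34, adjusted p = 0.593). Of 24 genes of fatty acid oxidation 18 were positive (median 0.18, 0.11 to 0.25). Ehhadh, an enzyme of peroxisomal oxidation, was at 6618.2, 9333.9, 1965.1 and 3628.5 in the knockout and 1457.6, 3555.6, 1059.7, 3617.0 and 3122.8 in wild type (1.00 ± 0.37, adjusted p = 0.489). Hadhb, of the mitochondrial trifunctional protein, was at 1813.4 to 3201.0 against 966.6 to 2235.4 (0.56 ± 0.21, adjusted p = 0.499). The fatty acid and triglyceride synthesis list had a median of 0.04 (-0.10 to 0.33), and its leading gene Lpin1, a phosphatidate phosphatase, was at 421.1, 249.6, 779.7 and 1192.0 against 935.9, 1751.5, 1570.9, 2150.8 and 1103.3 (-1.36 ± 0.45, adjusted p = 0.392). Gluconeogenesis and glycolysis genes split 10 and 10, with a median of 0.13 (-0.17 without knockout liver 1 to 0.27). Fbp1, fructose bisphosphatase, was at 29197.5 in that liver and 8180.2 to 12869.1 in the other 3, against 5004.7 to 18008.3 in wild type.

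The stress responses that CCl4 raises were also present in both genotypes, with the knockout livers selected on their CCl4 response. The unfolded protein and integrated stress response list had a median CCl4 response of 2.94 in wild type. In the knockout it was 2.15, and 2.61 without vehicle replicate 1. Between the genotypes 20 of its 26 genes were negative, with a median of -0.26 (-0.34 to -0.15). Atf4, its central transcription factor, was at 6751.1, 7262.7, 8292.3 and 10318.9 in the knockout and 12339.6, 8668.5, 13553.4, 12036.2 and 9474.6 in wild type (-0.46 ± 0.22, adjusted p = 0.581). Ddit3, which encodes the pro-apoptotic factor CHOP, was at 3167.7 to 6287.7 and 5703.8 to 10562.7, with knockout livers 3 and 4 inside the wild-type range (-0.58 ± 0.51, adjusted p = 0.766).

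NRF2 targets, the antioxidant genes, were negative in 16 of 20 (median -0.19, -0.26 to -0.12). Their summed level was 159484.0 to 173725.3 normalized counts in knockout livers and 194371.5 to 267476.7 in wild-type livers, without overlap. Such a sum weighs abundant members most, and of the 20 genes only 1 (Txnrd1) was itself without overlap. The summed levels of cytokines and of TGF-beta genes, given below, did not overlap either, while those of most other lists did. Gclc, which catalyses the first step of glutathione synthesis, was at 16255.7, 20812.1, 20492.5 and 30905.4 and at 44998.3, 23269.6, 56415.4, 52156.8 and 39669.4 (-0.95 ± 0.44, adjusted p = 0.581). Txnrd1, thioredoxin reductase, was at 9706.9, 14557.8, 12166.4 and 15706.0 and at 22668.2, 18146.4, 19650.7, 18960.0 and 17413.5, without overlap (-0.59 ± 0.24, adjusted p = 0.522). Wild-type liver 2, the lowest of its group in Gclc, stood inside the knockout range for that gene and outside it for Txnrd1.

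Heat shock genes pointed both ways, with 11 positive and 7 negative of 18, a median of 0.09 (-0.03 to 0.18) and 5 at an unadjusted p under 0.05. The cytosolic inducible chaperone Hspa1b was at 5146.1, 4370.0, 4500.2 and 1443.7 in the knockout and 1425.9, 4768.1, 1124.6, 609.3 and 1348.5 in wild type (1.27 ± 0.50, adjusted p = 0.512). Its near-identical copy Hspa1a, named for that reason after its values were seen and whose reads may be split with it, had a difference of 1.52 ± 0.65 (adjusted p = 0.566). The mitochondrial chaperonins were on the other side. Hspd1 was at 27029.9, 40824.6, 39392.8 and 42300.6 in the knockout and 54231.5, 47054.0, 51782.9, 47718.0 and 57276.7 in wild type, without overlap (-0.48 ± 0.20, adjusted p = 0.552). Hspe1, its partner, was at 7156.9, 12955.0, 13749.9 and 19925.6 and at 31843.2, 17106.9, 25962.4, 19341.4 and 20776.0 (-0.83 ± 0.29, adjusted p = 0.454).

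Of 20 p53 targets 11 were positive (median 0.02, -0.14 to 0.07). The members with an unadjusted p under 0.05 were Bbc3 and Trp53inp1, both with negative differences. Trp53inp1, a stress-induced p53 target, was at 6315.2, 5504.0, 6046.0 and 10700.2 in the knockout and 10398.3, 6860.4, 17230.7, 19740.7 and 14013.8 in wild type, with the library labelled knockout 4 inside the wild-type range (-0.89 ± 0.38, adjusted p = 0.559). Bbc3, the pro-apoptotic PUMA, was at 401.0, 404.8, 256.0 and 233.5 and at 683.8, 539.5, 409.7, 589.6 and 618.4, and the death receptor Fas was at 831.1, 659.4, 709.1 and 637.2 and at 452.1, 584.3, 493.6, 473.9 and 544.0. Neither overlapped, and their differences of -0.83 ± 0.34 and 0.47 ± 0.24 were of opposite sign (adjusted p = 0.534 and 0.607). Immediate early genes had a median of 0.03 (-0.29 without knockout liver 1 to 0.15), with the matricellular gene Ccn1 at 4303.9, 2070.0, 2026.9 and 586.9 against 770.0, 2509.8, 647.7, 301.6 and 545.1 (1.31 ± 0.48, adjusted p = 0.489). The clock list had a median of 0.11 (-0.10 without knockout liver 1 to 0.17) and Per2, a core repressor, was at 435.4, 351.7, 371.0 and 141.4 against 107.3 to 199.5 (0.98 ± 0.38, adjusted p = 0.502), the library labelled knockout 4 being the one inside the wild-type range. Metallothioneins and glucocorticoid-responsive genes had a median of -0.31 (-0.48 to -0.18), with Mt1 at 10950.9 to 58220.8 against 5643.0 to 131027.3. Fkbp5, a glucocorticoid-induced co-chaperone and the first of that list by adjusted p, was at 1014.4 to 1823.9 against 1601.3 to 2941.1 (-0.61 ± 0.30, adjusted p = 0.59).

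Secreted plasma proteins of the acute phase had a median of 0.01 over 26 genes (-0.24 without wild-type liver 2 to 0.12). Orm3, an orosomucoid of a family with close copies, was at 107.0, 747.7, 405.8 and 659.7 in the knockout and 1310.7, 678.5, 1754.7, 1362.5 and 857.0 in wild type (-1.56 ± 0.74, adjusted p = 0.581). Hamp, which encodes the iron hormone hepcidin, was at 26603.0, 31985.3, 40281.7 and 45600.3 against 60303.8, 46731.2, 93717.9, 56878.4 and 49441.7, without overlap (-0.75 ± 0.43, adjusted p = 0.646). The complement and coagulation list was positive in 19 of 23 genes (median 0.21, -0.03 without knockout liver 1 to 0.36). Cfb, of the alternative pathway, was at 303.0 in that liver and 84.1 to 160.2 in the other 3, against 36.7 to 124.7.

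Inflammatory genes had mostly positive differences. Of 19 cytokines and chemokines 15 were positive (median 0.44, 0.31 to 0.55), and the median CCl4 response of the list in wild type was 1.31. Their summed level was 12380.6 to 21158.7 in knockout livers and 8580.3 to 11954.6 in wild-type livers, without overlap. Ccl2, which recruits monocytes, was at 915.9, 1342.8, 862.8 and 746.5 in the knockout and 535.7, 543.0, 245.7, 217.7 and 466.3 in wild type. All knockout livers were above all wild-type livers, with a difference of 1.34 ± 0.65 (adjusted p = 0.59). Cxcl10, which recruits T cells, was at 4910.4, 2174.0, 1988.3 and 2019.9 and at 1094.2, 1200.0, 1365.6, 1532.2 and 1473.3, also without overlap (0.95 ± 0.50, adjusted p = 0.627). The left-out library labelled knockout 5 held these at 54.9 and 63.6. Il1a, an alarm cytokine and the first of the list by adjusted p, was at 461.9, 283.1, 229.9 and 152.1 against 98.4 to 167.2, with the library labelled knockout 4 inside the wild-type range (0.88 ± 0.34, adjusted p = 0.502). The chemokine Cxcl14 had a difference of the other sign, at 14.8, 70.1, 33.8 and 47.1 against 39.0 to 121.6 (-1.03 ± 0.52, adjusted p = 0.598).

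Interferon-stimulated genes were positive in 25 of 26 (median 0.28, 0.16 to 0.58), and 2 had an unadjusted p under 0.05. Irf8, a transcription factor of macrophages and dendritic cells, was at 678.0, 792.3, 434.8 and 568.7 in the knockout and 372.3, 226.9, 338.0, 353.0 and 562.6 in wild type, where wild-type liver 5 reached the knockout range (0.76 ± 0.23, adjusted p = 0.312). Irf1 was at 1836.6 to 2641.7 against 1100.5 to 2130.0 (0.48 ± 0.19, adjusted p = 0.504). Antigen presentation genes were positive in 14 of 16 (median 0.30, 0.16 to 0.44).

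Markers of Kupffer cells, other leukocytes and sinusoidal endothelium were mostly positive. Stellate cell markers, given below, were not, with 10 positive and 9 negative, nor were cholangiocyte markers, with 2 positive and 7 negative. No tested marker of the first lists was at 0 in all 9 livers, but only genes in the expression table and past the filter were tested, so this was largely set in advance. The table held 11 of 15 neutrophil markers and 22 of 23 monocyte and macrophage markers. In bulk liver, fewer cells of a type and less RNA per cell cannot be told apart. All 16 Kupffer cell markers were positive, with a median of 0.41 that was 0.06 without knockout liver 1 and at most 0.63 without another. Their summed level overlapped, at 10114.4 to 28624.9 normalized counts in knockout livers and 6657.3 to 19156.6 in wild-type livers. Adgre1, the F4/80 antigen of macrophages, was at 1071.1, 323.9, 123.7 and 174.6 and at 198.8, 427.8, 66.4, 50.6 and 143.4 (1.14 ± 0.53, adjusted p = 0.58), with knockout liver 1 above all others. Monocyte and macrophage markers were positive in 14 of 22 (median 0.39, 0.17 to 0.65), and the median was 0.02 among those with a mean of at least 100. Neutrophil markers were positive in 10 of 11 (median 0.29, 0.15 to 0.57). Lymphocyte markers were positive in 19 of 20 (median 0.40, 0.20 to 0.70), but the median was -0.17 among those with a mean of at least 100. The low ends of these ranges were without knockout liver 1. Summed levels in knockout and wild type were 13117.2 to 55547.4 and 3284.7 to 83859.4 for neutrophil markers, and 511.1 to 1399.5 and 539.0 to 1091.6 for lymphocyte markers, so these groups overlapped. Cd8a, of cytotoxic T cells, was at 62.0, 35.4, 21.3 and 51.4 against 46.9, 15.7, 8.4, 12.9 and 25.2 (1.06 ± 0.46, adjusted p = 0.568). Sinusoidal endothelial markers were positive in 20 of 22 (median 0.30, 0.16 to 0.42), and the scavenger receptor Stab2 was at 1158.5, 1142.9, 796.1 and 736.8 against 430.6, 945.7, 370.8, 385.6 and 640.3 (0.86 ± 0.31, adjusted p = 0.489).

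Matrix genes are the setting in which an ADAMTS protease acts, and most of them had positive differences. Of 26 myofibroblast and collagen genes 22 were positive (median 0.38, 0.27 to 0.58), and 8 of the 26 had an unadjusted p under 0.05. Postn, the matricellular protein periostin, was at 350.7, 619.4, 563.3 and 700.4 in the knockout and 243.1, 252.0, 362.4, 314.5 and 384.2 in wild type (0.82 ± 0.29, adjusted p = 0.489). Col5a2, a fibrillar collagen chain, was at 255.3, 104.4, 119.8 and 103.9 and at 124.1, 114.3, 38.9, 42.8 and 54.7 (1.01 ± 0.38, adjusted p = 0.499). Col4a2, of the basement membrane, was at 732.1, 1739.9, 890.8 and 855.7 against 365.0 to 946.0 (0.63 ± 0.24, adjusted p = 0.502). Wild-type livers 1 and 2 were the ones within the knockout range for Col5a2, and the summed level of the list overlapped, at 53246.1 to 126423.8 against 49535.8 to 92823.8. The list's median CCl4 response at 12 h was -0.75 in wild type and -0.17 in the knockout, or -0.21 without vehicle replicate 1.

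Proteoglycans and matrix glycoproteins were positive in 21 of 28 (median 0.22, 0.08 to 0.40). The basement membrane proteoglycan Hspg2, perlecan, was at 503.4 to 847.0 against 236.5 to 625.1 (0.71 ± 0.28, adjusted p = 0.504), and the laminin chain Lama2 was at 31.3, 38.1, 37.7 and 37.5 against 12.7, 37.2, 15.3, 13.7 and 14.2 (1.04 ± 0.41, adjusted p = 0.504). In Lama2 wild-type liver 2 alone reached the knockout level. Stellate cell markers had a median of 0.00065 (-0.08 to 0.11), with 10 positive and 9 negative. Hand2, a transcription factor of these cells, was at 21.2, 42.0, 62.8 and 76.0 in the knockout and 238.1, 94.2, 141.9, 88.3 and 67.9 in wild type (-1.30 ± 0.33, adjusted p = 0.168). The filament gene Nes was on the other side, at 108.1, 216.5, 87.9 and 85.7 against 53.2, 110.8, 39.7, 24.9 and 59.1 (1.16 ± 0.33, adjusted p = 0.28). Hand2 was called without the library labelled knockout 4, and Nes without wild-type liver 2.

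Of 26 genes of the ADAMTS and matrix metalloproteinase families and their inhibitors 17 were positive (median 0.26, 0.12 to 0.33). Mmp19, a metalloproteinase, was at 2876.8, 4330.7, 4479.0 and 4187.5 in the knockout and 5331.5, 4370.8, 6786.2, 6749.9 and 6034.4 in wild type (-0.56 ± 0.25, adjusted p = 0.568). Mmp2, the gelatinase of mesenchymal cells, was at 29.7, 13.9, 28.0 and 45.0 and at 19.0, 41.7, 6.9, 7.7 and 5.5 (1.10 ± 0.47, adjusted p = 0.567). Adamts7, the closest relative of Adamts12 in the family, was at 152.0, 137.9, 84.1 and 47.1 against 34.2, 113.0, 44.2, 42.8 and 69.0 (0.78 ± 0.39, adjusted p = 0.593), and Adamts1 was at 754.0 to 1510.2 against 598.2 to 927.7 (0.67 ± 0.34, adjusted p = 0.609). None was called, and in each the groups overlapped.

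TGF-beta and BMP ligands and targets had a median of 0.03 over 26 genes (-0.05 to 0.13). Their summed level was 46713.7 to 58178.0 in knockout livers and 59933.7 to 106770.0 in wild-type livers, without overlap. Much of that sum came from Hamp, a member of this list given above, at 26603.0 to 45600.3 against 46731.2 to 93717.9. Hamp was the only member without overlap. Inhba, a subunit of activin, was at 1662.2, 664.5, 687.9 and 439.1 against 259.6, 630.5, 267.8, 336.8 and 380.9 (1.10 ± 0.37, adjusted p = 0.45). Ccn2, the connective tissue growth factor, was at 82.1, 65.1, 113.0 and 214.2 against 209.0, 173.5, 489.8, 269.9 and 189.4 (-1.20 ± 0.60, adjusted p = 0.594), with the library labelled knockout 4 inside the wild-type range.

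Among cell cycle genes, those of mitosis were positive in 18 of 20 and had the highest of the 41 list medians, 0.54 (0.32 to 0.74), at summed levels of 704.1 to 955.1 in knockout livers and 476.4 to 795.3 in wild-type livers. Only 1 of the 20 had an unadjusted p under 0.05, against 8.38% of all genes, and many members were low. Cenpe, the first by adjusted p, was at 8.7 to 26.5 against 2.3 to 13.9. Mki67, a proliferation marker, was at 169.0, 90.5, 64.7 and 69.6 against 78.5, 64.6, 37.4, 24.9 and 58.0 (0.89 ± 0.46, adjusted p = 0.611). DNA replication genes had 9 positive and 15 negative (median -0.11, -0.11 to -0.06), and Gins1, of the replicative helicase, was at 59.3, 34.7, 31.9 and 66.4 against 102.6, 63.2, 77.8, 84.0 and 70.1 (-0.77 ± 0.22, adjusted p = 0.273).

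Hepatocyte transcription factor and plasma protein genes, which mark the main cell type of the tissue, summed to 2339219.2 to 4167807.1 normalized counts in knockout livers and 1886412.2 to 3966924.6 in wild-type livers, with a median difference of -0.08 (-0.21 to 0.03). Onecut1, a hepatic transcription factor, was at 308.8, 261.2, 344.9 and 56.8 against 37.4 to 102.2 (1.51 ± 0.58, adjusted p = 0.502), with the library labelled knockout 4 inside the wild-type range, and Foxa2 was at 442.3 to 666.6 against 599.5 to 1022.0 (-0.49 ± 0.21, adjusted p = 0.563). The growth hormone axis and sex-biased genes had a median of 0.12 (-0.14 without knockout liver 1 to 0.23), and iron genes one of 0.03 (-0.02 to 0.14). Of 14 genes of pancreas, fat and muscle 2 were among those tested, Cela1 at 47.8 to 301.3 and Car3 at 1600.9 to 12196.2 over the 9 livers. Cholangiocyte markers had a median of -0.36 (-0.93 to 0.48, the latter without wild-type liver 1, the liver high in Krt19). Spp1, osteopontin, which cholangiocytes and macrophages share, was at 871.4, 2049.6, 1006.7 and 3637.1 against 7255.1, 912.5, 4916.3, 2649.6 and 4185.6 (-1.02 ± 0.47, adjusted p = 0.58).

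Genes of the proteasome and of the mitochondrial genome mostly had negative differences. Of 31 proteasome subunits 29 were negative (median -0.21, -0.27 to -0.12), with 7 at an unadjusted p under 0.05 and the largest difference at -0.39. Psmd4, a ubiquitin receptor of the regulatory particle, was at 3798.5, 4571.4, 4778.5 and 5819.7 in the knockout and 6409.2, 5653.3, 7784.9, 5954.7 and 5121.5 in wild type (-0.39 ± 0.13, adjusted p = 0.454). All 13 mitochondrial-encoded genes were negative (median -0.67, -0.95 to -0.51), and 6 had an unadjusted p under 0.05. Among them mt-Nd2, a subunit of complex I, was at 168013.8, 99832.0, 154981.2 and 161840.6 and at 391795.7, 137798.9, 301319.4, 278985.7 and 228158.7 (-0.82 ± 0.30, adjusted p = 0.489), with wild-type liver 2 inside the knockout range. The nuclear-encoded respiratory chain split 13 and 14, with a median of -0.06 (-0.16 to 0.05). Erythroid transcripts were negative in 6 of 6 (median -0.77, -1.09 to -0.27, the latter without wild-type liver 1), at summed levels of 2799.8 to 8742.3 in knockout livers and 3207.4 to 39792.2 in wild-type livers. Wild-type liver 1 was the highest of the 9 in Hbb-bs and in mt-Nd2, and the part of one in the other was not tested.

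**Figure D5:**
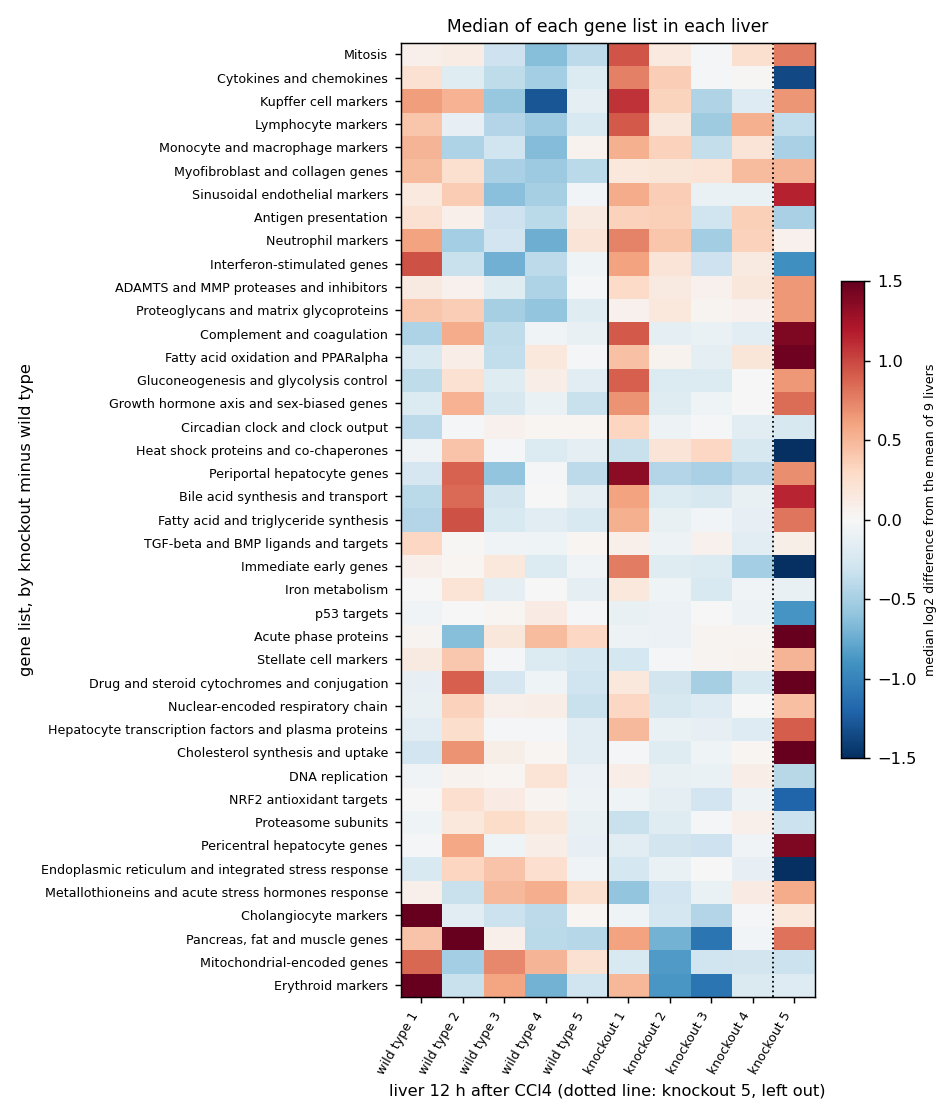
Median log2 difference from the mean of the 9 livers (color, blue lower, red higher) for each of the 41 gene lists (rows, ordered by the median of knockout minus wild type) in each liver 12 h after CCl4 (columns, with the left-out knockout 5 right of the dotted line). Single livers stand out, such as knockout 1 in the periportal list and wild type 1 in the cholangiocyte and erythroid lists, and knockout 5 stands apart in lists such as cholesterol synthesis and heat shock proteins.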

How the data were processed

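The authors deposited normalized signal, which is the read count per gene divided by a size factor per library. Per the submitters' processing notes STAR, HTSeq and DESeq2 were used with the build GRCm38, without versions or roles. The labels' protocols describe stranded mRNA libraries made from 500 ng of total RNA. In each library all values were whole multiples of 1 step within a tolerance of 0.01, and the steps gave the read totals. They were used for depth only, and no count test was run. Genes were placed by identifier, 14550 of 14560, on GRCm38.

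A gene was kept when 5 or more of the 79 libraries held it at 10 or more normalized counts, which removed 2. The log2 of the value plus 1 was fitted with limma 3.58.1 in R 4.3.3, with a mean for each of 16 groups and a trended empirical Bayes prior (67.7 total degrees of freedom, median residual SD 0.354). Tests were two-sided, with Benjamini-Hochberg adjustment over 14558 genes within each contrast and calls under 0.05. The library labelled knockout CCl4 12 h replicate 5 was left out of the fit. Figures used Python 3.11.15 and matplotlib 3.10.9. The scripts were first tested on simulated data that held known changes.

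Livers are labelled as separate mice. The least difference between 2 libraries of a group was a chi-square to degrees of freedom ratio of 38.2, so no library was counted as a repeat. Samples were grouped by their titles. The members and lists were chosen with earlier results of these data known. The rule for named genes took Adamts12, the 15 largest rises and falls among called genes without overlap and with a mean of at least 100, up to 4 members per list with the smallest adjusted p, and each gene of a result on 5 genes or fewer. By it Igf2bp3 was named as a result on 5 genes or fewer. Alternatives were a pseudocount of 8, no filter, a mean of at least 100, other sets of libraries, quantile normalization, the replicate number as a block and leaving out livers.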

Additional observations from a re-analysis of the deposited data

Results flagged for a closer look

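In 20 of 172 groups of values tested, the highest or lowest liver stood further from its nearest neighbour than Dixon's 95% limit allows. That limit is passed by about 1 in 20 groups where values are normally distributed and genes unselected. The genes here were largely named from these same data and their counts are skewed, so the 20 groups cannot be set against that rate. The groups are not independent, since many rest on the same livers, and all are values 12 h after CCl4 in normalized counts.

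Wild-type liver 2 was the highest of its group in 7 genes. It held Dnajb4 at 1639.4 (next liver 691.4), Cyp7a1 at 2134.5 (162.8), Pmvk at 1190.6 (755.3), Hspa1b at 4768.1 (1425.9), Ccn1 at 2509.8 (770.0), Fos at 398.2 (100) and Lama2 at 37.2 (15.3). Wild-type liver 3 was the highest in Cage1 at 43.5 (23.0), Hamp at 93717.9 (60303.8) and Psmd7 at 5438.1 (4360.8). Wild-type liver 1 was the highest in Hbb-bs at 24586.8 (5008.6) and in Krt19 at 1536.1 (26.3).

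The liver labelled knockout 1 was the highest of its group in Fos at 1611.4 (90.1), Cxcl10 at 4910.4 (2174.0), Col5a2 at 255.3 (119.8) and Col5a3 at 606.0 (185.3), and the lowest in Lama2 at 31.3 (37.5). The library labelled knockout 2 was the highest in Col4a2 at 1739.9 (890.8). The liver labelled knockout 3 was the highest in Cage1 at 115.0 (55.5), and the library labelled knockout 4 in Trp53inp1 at 10700.2 (6315.2).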

How the results depend on the processing

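The planned count tests with edgeR and DESeq2 were not run. The deposited values are normalized, with all libraries in 1 column, and the reads recovered from their steps were used for depth only. The count of called genes at 12 h after CCl4 (2) was 64 with knockout replicate 5 kept, 15 without the wild-type livers of label number below 7000, 5 with a pseudocount of 8 (adding Neurl3, Tafa5 and Irx1), and 1 each for genes with a mean of at least 100 (Dnmbp), with only the groups compared (Mup15, where Igf2bp3 was not tested) and with only the 12 h libraries (Igf2bp3). Leaving out 1 liver gave 1 to 35. Without the library labelled knockout vehicle replicate 1 the called genes were Igf2bp3, Dnmbp and Neurl3. For vehicle at 12 h (6) the counts were 0, 2, 2, 10 and 11 with a mean of at least 100, only the groups compared, only the 12 h libraries, a pseudocount of 8 and quantile normalization, and 0 to 44 without 1 liver. The interaction (0) had 3 calls without the low label numbers (Rhebl1, Dnmbp and Atf2) and 0 to 1 without 1 liver (Rhebl1). Genes called the same way at 12 h after CCl4 and in another condition (0) were 2 with replicate 5 kept (Tafa5 and Nbea), 2 with a pseudocount of 8 (Igf2bp3 and Tafa5), and 0 to 1 without 1 liver (Tafa5). The cause of these shifts was not tested.

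Of 1514 single-gene values over the alternatives 1462 kept direction and call, 37 gained a call, 8 lost it (all Dnmbp, at -0.88 with only the groups compared or only the 12 h libraries) and 7 changed sign. Adamts12 ranged from -0.67 to 0.058 without 1 liver. Without 1 liver Fos (0.93) ranged from -0.20 (without knockout liver 1) to 1.504. Cxcl10 (0.95) was -0.11 with replicate 5 kept. Krt19 (-0.78) ranged from -1.37 to 0.57 (without wild-type liver 1), and was 0.85 without the low label numbers. Saa1 (0.18) ranged from -0.96 (without wild-type liver 2) to 0.52, with -0.06 without knockout liver 3, and was -1.08 without the low label numbers. Of 736 list medians 721 moved by less than the spread between single livers. That limit is wide for a fit that leaves out 1 liver, so it says little about stability. The median changed sign in 70 of the 736, and 13 of these were in lists with a main median over 0.1 in size (8 lists). Of 736 list counts 6 had a called member.

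The replicate numbers did not pair the livers. Deviations of livers of the same number and time correlated at 0.0613, -0.129, 0.343 and 0.0705, and with the replicate block 3, 6 and 0 genes were called for CCl4, vehicle and the interaction.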
